A study of Mus musculus with 75 samples.

Results

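The 10 genes described here are Wnt/β-catenin target genes of perivenous hepatocytes, taken by gene symbol from a list: Glul, Oat, Slc1a2, Rhbg, Gulo, Tbx3, Lgr5, Axin2, Rnf43 and Znrf3. They are 10 of 55536 genes in the count table, and all 10 passed the filter on low counts in each of the 13 comparisons. The list was chosen with earlier results of these data known, so counts set beside all genes are no independent test. The RNA is from livers of male C57Bl/6 mice whose dams drank vehicle or tributyltin (TBT), an organotin, until weaning, at a daily dose of 0.5 mg/kg (3.07 µM). The groups were 3-week vehicle (7 samples) and 3-week TBT (8), 5-month vehicle (8), TBT low-risk (16) and TBT high-risk (10), and 10-month vehicle (6), low-risk TBT (5), uninvolved liver of high-risk TBT mice (5) and tumor (7). TBT exposure is shared by the low-risk, high-risk, uninvolved and tumor groups, and how risk was assigned is not given in the sources used here. A further library, a 10-month vehicle whose label calls it a tumor, was left out of all main comparisons. All samples are whole liver tissue or tumor pieces, so fewer cells of a type and less RNA per cell cannot be told apart.

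Hepatocytes next to the central vein receive Wnt ligands and R-spondins from the endothelium of that vein. Wnt binds Frizzled receptors with LRP5 or LRP6, which stops the breakdown of β-catenin, and β-catenin then acts with TCF/LEF factors on target genes. In the normal liver this keeps a narrow ring of cells that take up ammonia and glutamate and make glutamine, and a wider perivenous zone with its own metabolic genes. R-spondins, bound by LGR receptors, protect Frizzled receptors from the ubiquitin ligases RNF43 and ZNRF3, which are themselves Wnt targets and so form a negative feedback loop.

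Depth ranged from 2831666 to 45448610 counts per library. Of 75 libraries, 6 stood apart with under 5 M counts, more than 35000 detected genes or a mitochondrial share above 10%, namely 5-month vehicle 9, low-risk 16, high-risk 10 and high-risk 15, a library of 3-week vehicle mouse 3, and the vehicle library labelled as a tumor. Leaving them out kept the counts of called genes at 7 and 5 in the comparisons of 5-month high-risk livers. All mice are labelled male, yet Xist reached 348 CPM in TBT 4 of 3 weeks and at most 84.6 CPM in any other library. The libraries of uninvolved livers 3 and 6 differed by a chi-square of 3.48 per gene, whereas the next closest pair of any group had 13.5, so they were summed and counted as 1 sample.

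In the GRCm38 annotation the metabolic genes are Glul (ENSMUSG00000026473) at chr1:153899944-153909723 on the plus strand, Oat (ENSMUSG00000030934) at chr7:132557478-132576398 on the minus strand, Slc1a2 (ENSMUSG00000005089) at chr2:102658659-102790784 on the plus strand, Rhbg (ENSMUSG00000104445) at chr3:88242874-88254709 on the minus strand and Gulo (ENSMUSG00000034450) at chr14:65986786-66009207 on the minus strand. The regulators are Tbx3 (ENSMUSG00000018604) at chr5:119670669-119684724 on the plus strand, Lgr5 (ENSMUSG00000020140) at chr10:115450311-115587780 on the minus strand, Axin2 (ENSMUSG00000000142) at chr11:108920349-108950783 on the plus strand, Rnf43 (ENSMUSG00000034177) at chr11:87662722-87735539 on the plus strand and Znrf3 (ENSMUSG00000041961) at chr11:5276324-5444847 on the minus strand.

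The start-site windows of the genes show where the sequence that TCF/LEF factors are known to prefer, CTTTGA, lies close to a start. RefSeq windows of 300 bases on GRCm38.p6, from 250 bases before to 50 after the start, were at hand for 5 of the 10 genes: Glul, Oat, Slc1a2, Axin2 and Rnf43, the last with 2 starts. CTTTGA or its reverse complement TCAAAG was found in Slc1a2 alone, and 5257 of all 32851 such windows (16%) hold it. The windows of Slc1a2 (chr2:102706188-102706487, plus strand), with both matches in capitals, of Glul (chr1:153899679-153899978, plus strand), the gene with the largest difference at 5 months, and of Axin2 (chr11:108920099-108920398, plus strand), a widely used readout of Wnt signaling, read 5′ to 3′ as follows.
Slc1a2: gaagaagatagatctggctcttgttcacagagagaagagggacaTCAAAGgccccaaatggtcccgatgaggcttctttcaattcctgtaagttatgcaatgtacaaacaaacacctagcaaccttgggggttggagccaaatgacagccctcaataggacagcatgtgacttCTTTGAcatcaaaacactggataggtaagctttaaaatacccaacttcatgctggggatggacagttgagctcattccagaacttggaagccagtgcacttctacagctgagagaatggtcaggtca
Glul: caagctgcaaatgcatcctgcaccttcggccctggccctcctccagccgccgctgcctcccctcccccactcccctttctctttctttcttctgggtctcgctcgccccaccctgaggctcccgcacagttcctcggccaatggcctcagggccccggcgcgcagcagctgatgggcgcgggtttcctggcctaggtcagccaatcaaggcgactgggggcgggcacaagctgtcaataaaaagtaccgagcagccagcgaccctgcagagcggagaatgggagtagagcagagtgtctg
Axin2: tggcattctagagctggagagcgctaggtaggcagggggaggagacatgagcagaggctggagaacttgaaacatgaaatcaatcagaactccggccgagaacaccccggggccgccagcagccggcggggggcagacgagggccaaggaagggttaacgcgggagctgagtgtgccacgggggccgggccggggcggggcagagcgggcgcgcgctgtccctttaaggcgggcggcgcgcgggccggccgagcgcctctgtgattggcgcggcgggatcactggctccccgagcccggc
The Slc1a2 start used by RefSeq lies inside the annotated gene. The matches in Slc1a2 begin 206 bases before the start, on the reverse strand, and 77 bases before it, on the forward strand. A match is a string of letters and no evidence of binding, and no match says only that these letters are not in this window. The longer strings CTTTGAT and CTTTGTT, either strand, occur in 3.73% and 5.85% of all windows.

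Levels are CPM, counts relative to the library total, scaled by the trimmed mean of M-values (TMM), and levels of different genes are compared only per kilobase of merged exon. In 10-month vehicle livers Oat, Glul and Gulo had the highest levels, with 452 ± 92.1 CPM per kb of Oat (SD, n = 6), 382 ± 88.5 of Glul and 303 ± 25.6 of Gulo. Slc1a2 followed with 18.9 ± 2.11 CPM per kb. Below it came 4 of the regulators, at 4.82 ± 2.35 for Tbx3, 3.42 ± 0.744 for Rnf43, 2.18 ± 0.229 for Znrf3 and 1.82 ± 0.633 for Axin2. Rhbg had 1.55 ± 0.483 and Lgr5 0.736 ± 0.220 CPM per kb, which in CPM is 7.55 for Lgr5 and 3.00 for Rhbg. Their counts were low in places, down to 4 for Rhbg in a 5-month vehicle and 5 for Lgr5 in a low-risk liver.

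**Figure D1:**
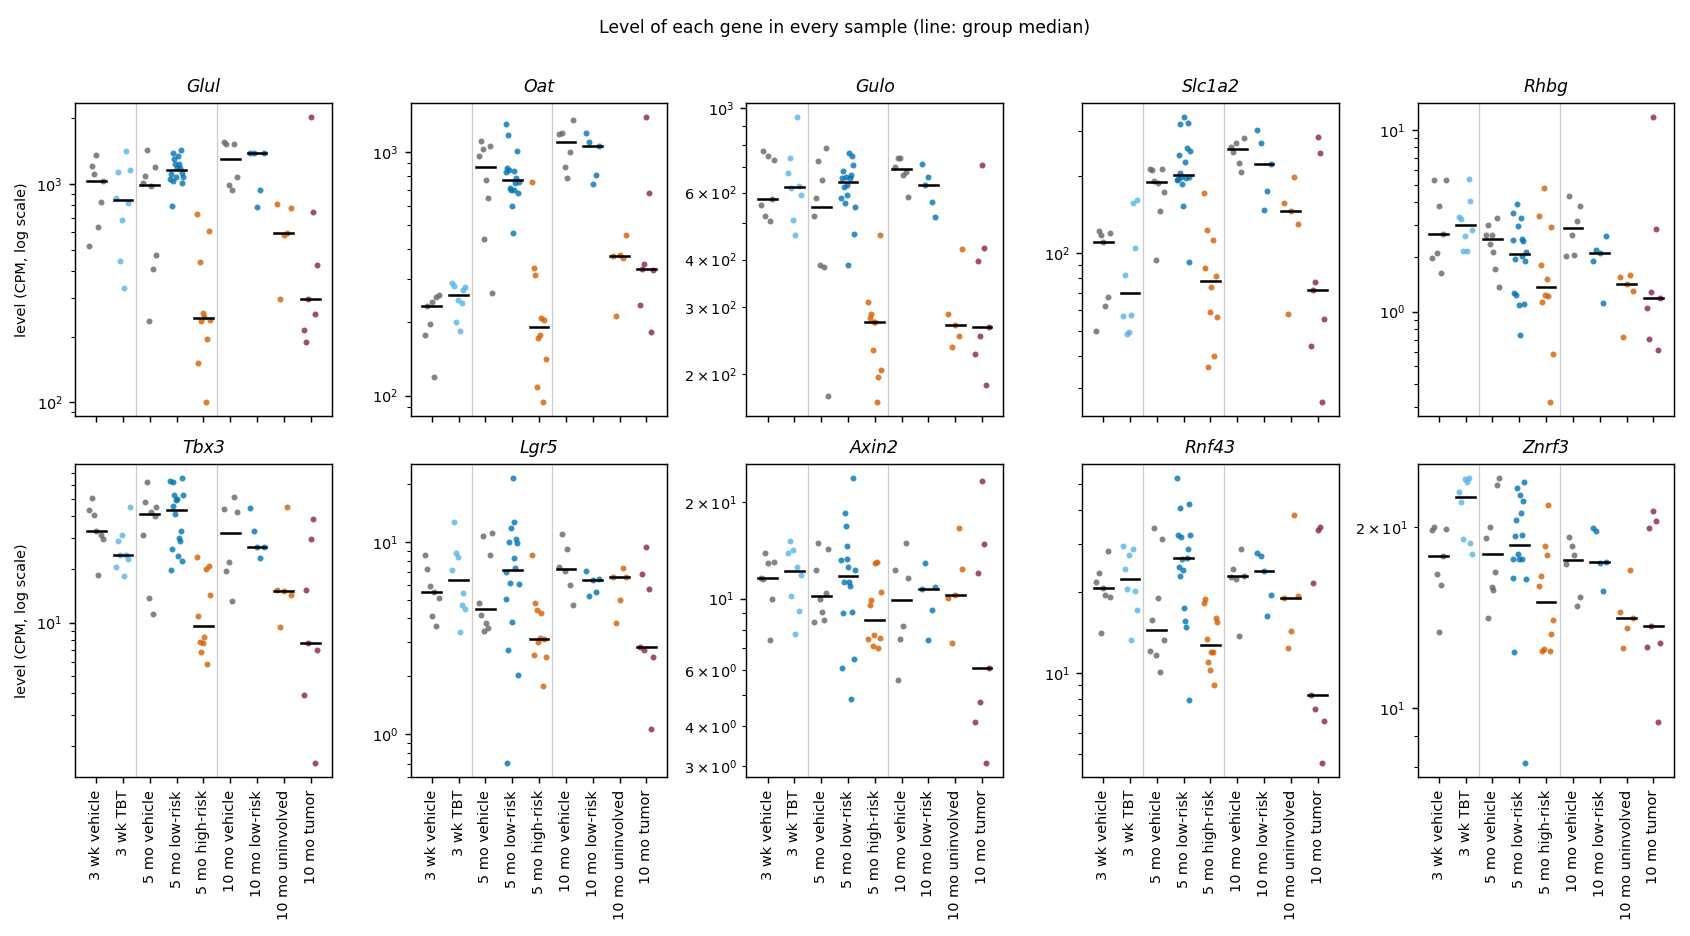
Level of each of the 10 genes in every sample, in CPM on a log axis, by group, with a line at the group median. High-risk livers of 5 months lie lower than low-risk livers for Glul, Oat, Gulo, Slc1a2 and Tbx3, and the 7 tumors spread widely, from 189 to 2033 CPM for Glul.

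Ordered by group mean, Glul, Oat, Slc1a2 and Gulo were each highest in 10-month vehicles, with 1271, 1068, 248 and 686 CPM. Glul, Slc1a2, Lgr5, Axin2, Tbx3, Gulo and Rnf43 were each lowest in 5-month high-risk livers. For Oat the order ended with the 3-week groups, and for Rhbg and Znrf3 with the uninvolved livers. Along each order the 8 pairs of neighbouring groups differed by less than the larger of their SDs, for all 10 genes.

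The question whether these genes differed by weaning after maternal TBT rests on 3-week livers, 8 of TBT and 7 of vehicle mice. None of the 10 passed an adjusted p of 0.05 (edgeR quasi-likelihood, Benjamini-Hochberg over all 14050 genes), where 0% of all genes passed. Of the 10, 1 gene, Znrf3, had an unadjusted p under 0.05, as did 474 of the 14050 genes. DESeq2 also gave 0 of the 10, as did the fit without the library labelled TBT 4. Znrf3 had 21.6 ± 2.56 CPM in TBT livers and 17.7 ± 2.47 in vehicles, a log2 difference of 0.29 (SE 0.10). Glul spanned 334 to 1422 CPM in TBT livers around a median of 841, and 521 to 1360 in vehicles around a median of 1033. Both groups overlapped for Glul, and over the 10 genes the log2 differences ran from -0.40 (SE 0.21) for Tbx3 to 0.29 for Znrf3.

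In vehicles, 2 of the 10 genes rose between 3 weeks and 5 months, where 11.9% of 14962 genes did (batch 1 only, 7 against 7 samples). Oat, the mitochondrial aminotransferase that turns ornithine toward glutamate, was at 119 to 260 CPM at 3 weeks and at 265 to 1109 CPM at 5 months, with no overlap between the ages, as for 1.7% of genes in this direction. Its log2 rise was 1.80 (SE 0.24, edgeR adjusted p 7.2e-06). Slc1a2, a glutamate transporter, rose by 0.92 (SE 0.20, adjusted p 0.0019), from a median of 111 CPM to one of 190 CPM over all 8 vehicles of 5 months. The other 8 genes did not pass, among them Glul at -0.25 (SE 0.30) and Axin2 at -0.06 (SE 0.21). Other perivenous genes split, with 7 higher and 4 lower of 32 tested, where 3616 of 14962 genes were called, 1774 of them higher. Markers of other cells differed between these ages too, as 13 of 13 endothelial and 7 of 12 stellate cell markers fell, and 14 of 14 proliferation genes fell. Their part in the result was not tested. From 5 to 10 months 0 of the 10 passed, where 14.1% of all genes did, and 0 passed by DESeq2. At an unadjusted edgeR p under 0.05 were 3 of the 10 and 4557 of 14962 genes.

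High-risk (10) and low-risk (16) livers of 5 months were set against each other with batch as a covariate. Of the 10 genes, 7 fell in high-risk livers and 0 rose, where 18.5% of 14773 genes were called lower. Glutamine synthetase (Glul), the glutamate transporter Slc1a2, Oat, the vitamin C enzyme Gulo, the transcription factor Tbx3, the R-spondin receptor Lgr5 and the ubiquitin ligase Rnf43 were lower by 1.99-fold to 3.75-fold. Axin2, Rhbg and Znrf3 did not pass. The median log2 difference of the 10 genes was -1.13, beside -0.01 over all genes tested.

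Among the genes of nitrogen metabolism, Glul makes glutamine from glutamate and ammonia. It was at 100, 151, 194, 235, 239, 245, 256, 439, 610 and 730 CPM in the high-risk livers, and ranged from 791 to 1433 CPM around a median of 1157 in the low-risk livers. All high-risk livers lay below all low-risk livers, as held in this direction for 0.528% of genes. The log2 difference was -1.91 (SE 0.26, edgeR adjusted p 6.8e-07). Oat ranged from 93.9 to 752 CPM around a median of 191 in high-risk livers, against 468 to 1309 CPM around 769 in low-risk livers. High-risk 1 was the 1 liver inside the low-risk range, and the log2 difference was -1.68 (SE 0.26, adjusted p 4.5e-06). Slc1a2 had 36.0 to 172 CPM around a median of 77.9, against 92.7 to 340 CPM around 203, so that 7 of 10 high-risk livers lay below all low-risk livers. It fell by 1.39 on the log2 scale (SE 0.21, adjusted p 2.8e-06). Rhbg, an ammonium transporter, ranged from 0.317 to 4.78 CPM and from 0.740 to 3.91 CPM, and its difference of -0.24 (SE 0.30, adjusted p 0.56) was within the spread of the samples.

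Gulo, which makes the last step of vitamin C synthesis, was at 168 to 464 CPM around a median of 274 in high-risk livers and at 387 to 765 CPM around 641 in low-risk livers. High-risk 22 was the 1 liver that reached into the low-risk range. Gulo fell by 1.21 on the log2 scale (SE 0.15, edgeR adjusted p 3.4e-07). Tbx3, a T-box factor downstream of β-catenin in liver, had 5.83 to 23.6 CPM around a median of 9.57, against 19.9 to 65.9 CPM around 43.5. It fell by 1.70 (SE 0.29, adjusted p 2.3e-05), with all 10 high-risk livers below the low-risk mean.

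Lgr5 ranged from 1.78 to 8.53 CPM around a median of 3.13 in high-risk livers, inside the low-risk range, 0.704 to 21.6 CPM around 7.15. It fell by 1.04 (SE 0.35, edgeR adjusted p 0.018), with 9 of 10 high-risk livers below the low-risk mean. Rnf43 had 9.01 to 18.7 CPM around a median of 12.7, against 7.97 to 52.8 CPM around 26.6, and fell by 0.996 on the log2 scale (SE 0.23, adjusted p 0.00074). All 10 high-risk livers were below the low-risk mean, and none below the lowest low-risk liver. Its paralog Znrf3 had medians of 15.01 and 18.7 CPM and a difference of -0.24 (SE 0.14, adjusted p 0.17). Axin2, a scaffold of the complex that breaks down β-catenin, had medians of 8.61 and 11.8 CPM and a difference of -0.37 (SE 0.19, adjusted p 0.13). Both groups overlapped for Axin2, at 7.04 to 12.97 CPM in high-risk and 4.88 to 23.8 CPM in low-risk livers.

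The direction held within each batch for all 10 genes, at 3 against 6 livers in batch 1 and 7 against 10 in batch 2. Glul differed by -2.24 (SE 0.53) in batch 1 and -1.77 (SE 0.25) in batch 2, and Oat by -1.67 (SE 0.40) and -1.70 (SE 0.35). In batch 1 alone, with fewer samples, 4 of the 10 passed, and Tbx3 (-1.77, edgeR adjusted p 0.062), Rnf43 (-1.10, adjusted p 0.11) and Lgr5 (-0.99, adjusted p 0.47) did not. Over all genes, batch 1 alone gave 773 calls and both batches 5745.

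Against the 8 vehicles, 5 of the 10 genes fell in 5-month high-risk livers, where 7.38% of genes were called lower. Glul fell by 1.61 (SE 0.31, edgeR adjusted p 0.00081), Oat by 1.55 (SE 0.30), Tbx3 by 1.48 (SE 0.35), Gulo by 1.07 (SE 0.19) and Slc1a2 by 0.95 (SE 0.25, adjusted p 0.0081). Vehicles spread widely, with Glul at 237 to 1432 CPM around a median of 994, so that 4 of 10 high-risk livers lay below all vehicles. Lgr5 (-0.70, SE 0.44), Rhbg (-0.62, SE 0.38), Rnf43 (-0.39, SE 0.28), Znrf3 (-0.26, SE 0.17) and Axin2 (-0.18, SE 0.24) did not pass. In batch 1 alone, 3 against 7 livers, 0 of the 10 and 0 of all genes passed, with Glul at -1.82 (SE 0.51, adjusted p 0.13), and batch 2 held 1 vehicle. A fit of the 2 groups alone left Slc1a2 at an adjusted p of 0.054. These comparisons share the high-risk livers.

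Low-risk livers gave 0 calls against vehicles among the 10 genes at 5 months (0% of all genes by edgeR). Of the 10, 1 gene, Rnf43, had an unadjusted p under 0.05, as did 934 of 14773 genes. Rnf43 was 0.61 (SE 0.25) higher in low-risk livers, with an adjusted p of 0.68. DESeq2 also called 0 of the 10, and 78 of all genes. Glul differed by 0.29 (SE 0.27) and Axin2 by 0.19 (SE 0.22).

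**Figure D2:**
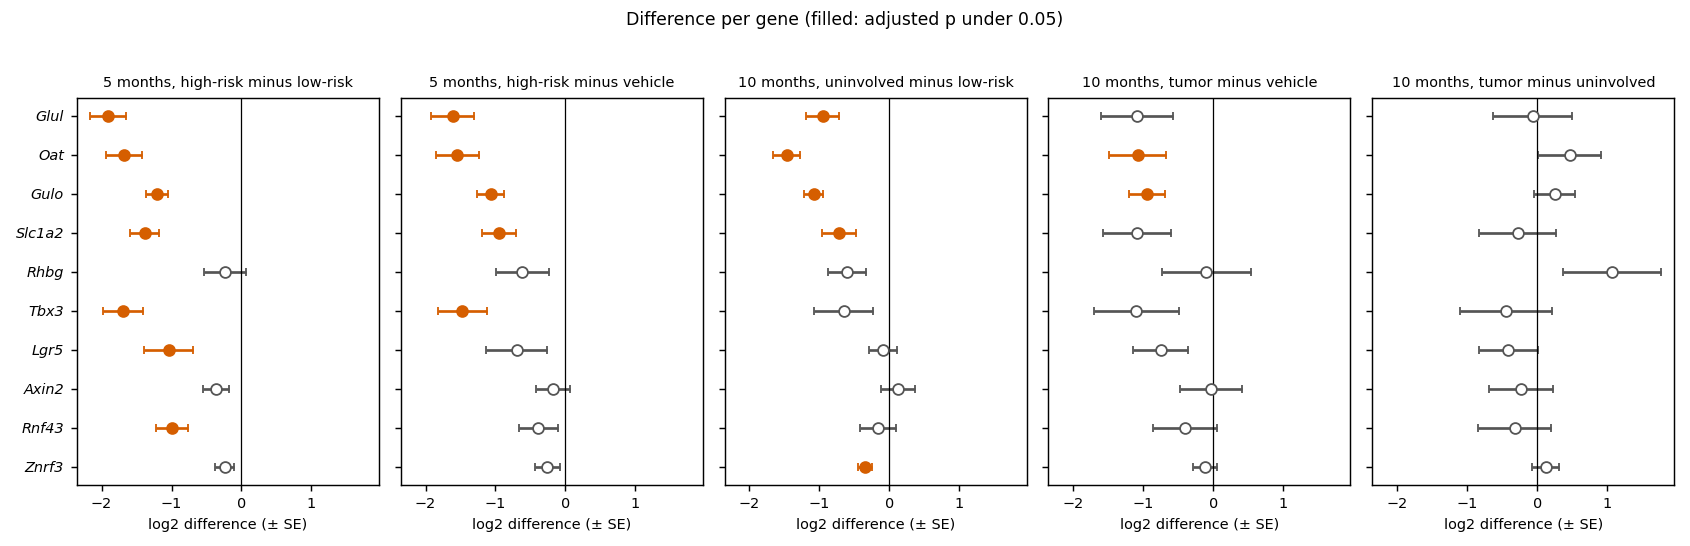
Log2 difference of each gene with its standard error in 5 comparisons, with filled points where the adjusted p was under 0.05. At 5 months 7 genes are filled for high-risk minus low-risk livers and 5 for high-risk minus vehicle livers, at 10 months 5 for uninvolved minus low-risk livers, 2 for tumor minus vehicle and 0 for tumor minus uninvolved liver.

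Of 32 other perivenous hepatocyte genes tested in the same contrast of 5 months, 21 fell in high-risk livers and 5 rose, with a median log2 difference of -0.98. Slco1b2, an organic anion transporter, fell from 1689 ± 249 CPM (SD, n = 16) in low-risk to 518 ± 239 CPM (n = 10) in high-risk livers, by 1.70 (SE 0.20). Rgn (-1.47, SE 0.17), a calcium-binding lactonase that acts in the step before Gulo, and Cyp27a1 (-1.41, SE 0.16), a sterol hydroxylase, had edgeR adjusted p of 9.1e-08 and 9.4e-08. Of 24 periportal genes, 8 rose and 5 fell, with a median of 0.20. Hsd17b13 rose by 0.87 (SE 0.13) and Aldh1b1 by 2.01 (SE 0.33), and Igfals fell by 1.16 (SE 0.22). Over all genes, 20.3% were called higher and 18.5% lower.

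Other Wnt target genes did not share one direction, with 7 higher and 4 lower of 14 tested and a median of 0.68. Lect2, a secreted hepatocyte protein, fell by 1.12 (SE 0.14) and the Wnt deacylase Notum by 1.13 (SE 0.16). Myc rose by 2.02 (SE 0.30), from 3.54 ± 2.32 to 13.9 ± 6.93 CPM, and Cd44, a hyaluronan receptor, rose by 0.87 (SE 0.15). Lect2 is also on the perivenous list and Notum on the list of antagonists.

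Upstream in the pathway, the ligand list also holds Wls and Porcn, which are no ligands. Of its genes, 3 rose and 2 fell of 10 tested, where 20.3% of all genes were called higher and 18.5% lower. Wnt2, made by liver endothelial cells, fell by 1.19 (SE 0.25, edgeR adjusted p 0.00024), from 4.42 ± 1.97 to 1.94 ± 0.830 CPM. Wls, which carries Wnt proteins to the cell surface, rose by 0.98 (SE 0.14), as did Wnt5a (1.70, SE 0.33) and Wnt4 (1.08, SE 0.23). Of 12 receptor genes, 3 rose and 5 fell. The R-spondin receptor Lgr4 fell by 0.63 (SE 0.11), from 111 ± 16.2 to 71.0 ± 16.8 CPM, and the Frizzled receptor Fzd8 by 1.52 (SE 0.26), whereas Fzd1 rose by 0.66 (SE 0.13). Of 22 intracellular components 4 rose and 1 fell, with log2 changes of 1.70 (SE 0.48) for Pygo1, 0.49 (SE 0.16) for Gsk3b, which marks β-catenin for breakdown, and -0.35 (SE 0.13) for Dvl1. Of 7 secreted antagonists 4 rose and 2 fell: Frzb (1.90, SE 0.24) and Dkk3 (1.88, SE 0.28) rose, and Wif1, which binds Wnt proteins, fell by 4.23 (SE 0.81) from 1.75 ± 1.44 to 0.121 ± 0.310 CPM.

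**Figure D3:**
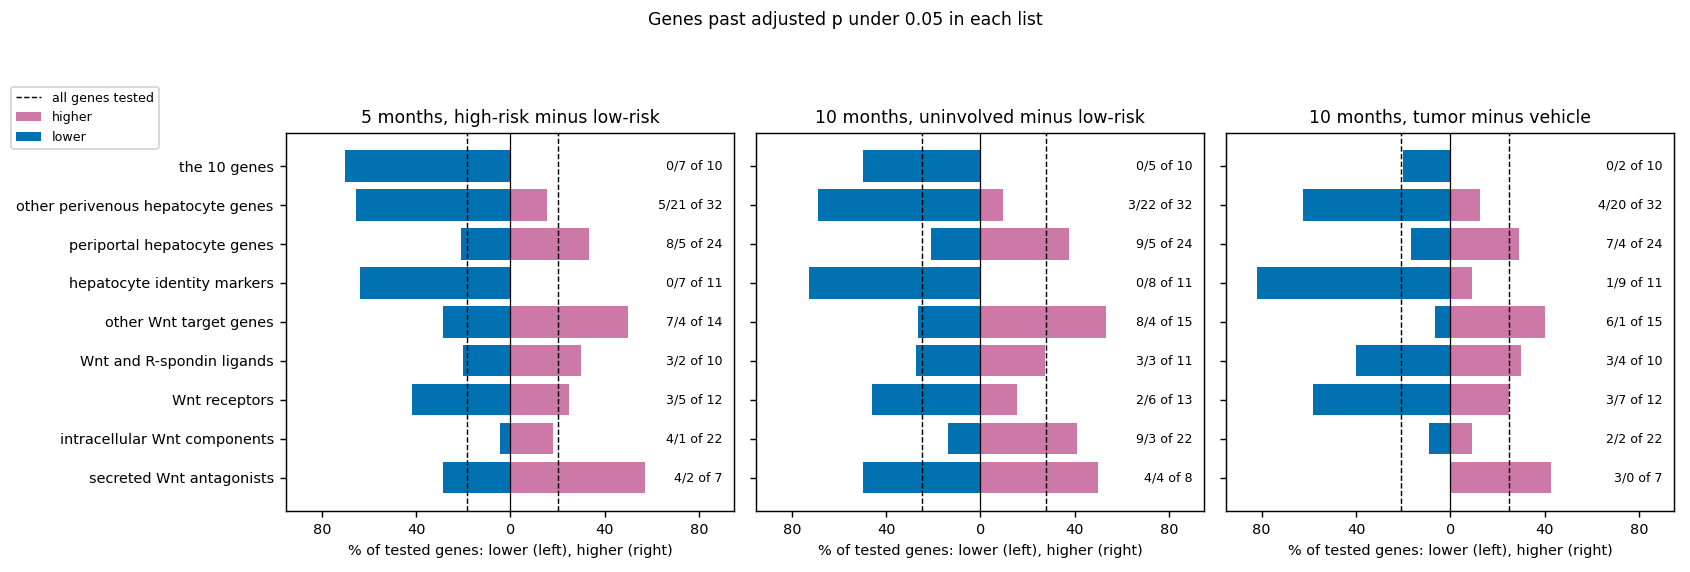
Share of the tested genes of each list that were called higher (right) or lower (left), with the numbers higher, lower and tested, and dashed lines at the share of all genes tested. Other perivenous genes lie mostly to the left in each panel (21, 22 and 20 of 32 lower), and other Wnt targets to the right (7 of 14, 8 of 15 and 6 of 15 higher).

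Markers of other cells moved with the same comparison, beside 20.3% of all genes called higher and 18.5% lower. Of hepatocyte identity markers 0 rose and 7 fell of 11, of stellate cell markers 8 rose and 2 fell of 12, of cholangiocyte and progenitor markers 7 rose of 10, and of proliferation genes 14 rose of 14. Of 13 endothelial markers 1 rose and 5 fell, and of 9 central vein endothelial genes 2 rose and 3 fell. Summed over the list, hepatocyte identity markers spanned 74505 to 191484 CPM in high-risk and 112243 to 191755 CPM in low-risk livers, stellate cell markers 670 to 1595 and 389 to 817 CPM, and cholangiocyte markers 151 to 479 and 77.1 to 335 CPM. No marker of these lists was at 0 throughout a group. Their part in the lower perivenous genes was not tested. High-risk 1, the liver with the most Glul, Oat and Lgr5 of its group, had the lowest summed stellate cell markers, at 670 CPM, and proliferation genes, at 41.4 CPM, and the highest sum of other perivenous genes, at 12940 CPM.

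At 10 months, uninvolved liver of high-risk mice was compared with low-risk liver and with vehicle, at 5, 5 and 6 samples. The uninvolved libraries stood apart from both: they had 34.8 to 44.6 M counts against 26.2 to 33.5 M, 24676 to 28715 detected genes against 21078 to 22578, and 4.202% to 5.85% mitochondrial counts against 2.94% to 3.83%, with no overlap. The part of these differences in the results was not tested. Against low-risk livers 5 of the 10 genes fell, where 24.7% of 16338 genes were called lower and 27.7% higher: Glul, Oat, Slc1a2, Gulo and Znrf3. Against vehicles 6 fell, the same 5 and Rhbg, where 26.5% of genes were called lower. Axin2, Lgr5, Tbx3 and Rnf43 passed in neither comparison. The median difference of the 10 genes was -0.63 against low-risk livers and -0.78 against vehicles, beside 0.05 and 0.06 over all genes.

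Oat was at 213, 368, 374, 379 and 457 CPM in uninvolved livers and at 740, 806, 1056, 1099 and 1197 CPM in low-risk livers. All uninvolved livers lay below all low-risk livers, which held in this direction for 15.1% of genes, and the log2 difference was -1.47 (SE 0.19, edgeR adjusted p 1.5e-05). Gulo showed the same separation, at 235, 251, 269, 287 and 426 CPM against 516, 567, 629, 658 and 714 CPM, and fell by 1.08 (SE 0.14, adjusted p 1.3e-05). Glul had 299, 585, 597, 776 and 814 CPM against 788, 941, 1387, 1388 and 1388 CPM, with 1 uninvolved liver above the lowest low-risk liver. It fell by 0.96 (SE 0.24, adjusted p 0.0035). Slc1a2 had 58.2, 130, 146, 157 and 198 CPM against 148, 175, 223, 270 and 301 CPM, with overlap, and fell by 0.71 (SE 0.24, adjusted p 0.021). That call ended without low-risk replicate 2 (adjusted p 0.056), without low-risk replicate 4 (0.055) and in a fit of the 2 groups alone (0.052).

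Znrf3 had 12.6, 13.6, 14.2, 14.4 and 16.99 CPM in uninvolved livers and 15.7, 17.4, 17.5, 19.7 and 19.9 CPM in low-risk livers. The groups overlapped by 1 uninvolved liver, and the fall was small, at 0.34 (SE 0.10, edgeR adjusted p 0.0084). Rhbg, at 0.724 to 1.58 CPM, lay below all vehicles, at 2.03 to 4.32 CPM, and fell by 1.21 (SE 0.26, adjusted p 0.00082) against them. The fall of Znrf3 against vehicles, 0.27 (SE 0.10, adjusted p 0.021), did not pass in a fit of the 2 groups alone (0.051) or without uninvolved replicate 1 (0.055), 3-6 (0.063) or 5 (0.058). Against low-risk livers the difference of Rhbg was -0.61 (SE 0.27, adjusted p 0.067), which passed at 0.035 with uninvolved livers 3 and 6 as separate samples and at 0.028 without low-risk replicate 9. Against vehicles 5 genes, Glul, Oat, Slc1a2, Rhbg and Gulo, did not overlap, where 15% of all genes did not overlap in this direction.

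Tbx3 was at 9.41, 14.3, 15.2, 15.3 and 45.02 CPM in uninvolved livers and at 23.2 to 44.3 CPM in low-risk livers, so that 4 of 5 lay below the low-risk range and uninvolved 7 above it. Its difference was -0.65 (SE 0.42, edgeR adjusted p 0.20) with uninvolved 7 and -1.19 (adjusted p 0.013) without it. Rnf43 was likewise highest in uninvolved 7, at 38.3 CPM beside 12.4 to 19.2 CPM in the others, with a difference of -0.17 (SE 0.26, adjusted p 0.61), or -0.50 (adjusted p 0.046) without that sample. Lgr5 had 3.80 to 7.33 CPM against 5.25 to 7.10 CPM (-0.09, SE 0.20) and Axin2 7.29 to 16.6 CPM against 7.45 to 12.9 CPM (0.12, SE 0.24), both within the spread. The summed sample of livers 3 and 6 was the lowest of the 5 for all 10 genes.

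The change of the high-risk against low-risk difference from 5 to 10 months was tested as an interaction. None of the 10 genes passed, where 0.448% of all genes did, and DESeq2 also called 0 of the 10. At an unadjusted edgeR p under 0.05 were 3 of the 10 and 1945 of 16084 genes. The largest estimates were 1.06 (SE 0.48, adjusted p 0.37) for Tbx3 and 0.94 (SE 0.38, adjusted p 0.31) for Glul, where a positive value means a smaller decrease at 10 months. Low-risk livers of 10 months gave 0 calls against vehicles, among the 10 and over all genes, and 0 of the 10 by DESeq2. Of the 10, 1 gene, Rhbg, had an unadjusted edgeR p under 0.05, as did 688 of 16338 genes.

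Of 32 other perivenous genes, 22 fell and 3 rose in uninvolved against low-risk livers, with a median of -0.97. Over all genes, 24.7% were called lower and 27.7% higher. Cyp2c37, a cytochrome P450, fell from 190 ± 30.3 to 21.5 ± 3.43 CPM (n = 5 and 5), by 3.16 (SE 0.18). Near-identical Cyp2c genes can share reads, and this size is uncertain for that reason. Of 24 periportal genes 9 rose and 5 fell, and of 15 other Wnt targets 8 rose and 4 fell, with Ccnd1 (2.04, SE 0.33) and Mmp7 (3.30, SE 0.45) higher and Lect2 (-0.99, SE 0.12) lower. Of 11 genes of the ligand list 3 rose and 3 fell, close to the shares over all genes. Wnt2 fell by 1.28 (SE 0.19), from 4.80 ± 1.20 to 2.001 ± 0.408 CPM, and Rspo3, an R-spondin of central vein endothelium, by 0.44 (SE 0.14), from 7.07 ± 0.396 to 5.28 ± 1.04 CPM. Of 13 receptor genes 2 rose and 6 fell, with Lgr4 (-0.77, SE 0.10) and Fzd8 (-0.89, SE 0.20) lower. Of 22 intracellular components 9 rose and 3 fell, and of 8 antagonists 4 rose and 4 fell. Of hepatocyte identity markers 8 of 11 fell, while 10 of 10 cholangiocyte and progenitor markers and 14 of 14 proliferation genes rose, and of 12 stellate cell markers 6 rose and 1 fell. Summed stellate cell markers were at 713 to 917 CPM against 472 to 677 CPM in low-risk livers, cholangiocyte and progenitor markers at 212 to 361 against 81.0 to 113 CPM, and hepatocyte identity markers at 83213 to 117773 against 132390 to 145807 CPM. Their part in the result was not tested.

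Tumors were compared with vehicles, low-risk livers and uninvolved livers, at 7, 6, 5 and 5 samples, comparisons that share the tumors. Against vehicles 2 of the 10 genes fell, Oat and Gulo, where 21% of 15293 genes were called lower and 24.8% higher, and against low-risk livers Gulo alone, where 15.3% of genes were called lower. Against uninvolved livers 0 of the 10 passed, where 18.1% of genes were called in either direction, with 0 of the 10 at an unadjusted p under 0.05 and 0 by DESeq2. The uninvolved libraries also stood apart from the tumors. Tumors had 22.5 to 27.9 M counts, 22609 to 23868 detected genes and 2.64% to 3.46% mitochondrial counts, each below every uninvolved library. The part of these differences in any comparison of tumor with uninvolved liver, within mice or for pathway genes, was not tested. Markers of other cells moved with the comparison with vehicles: 9 of 10 cholangiocyte and progenitor markers and 14 of 14 proliferation genes rose, and of 11 hepatocyte identity markers 9 fell and 1 rose. Summed, cholangiocyte and progenitor markers were at 249 to 865 CPM in tumors and 78.4 to 95.4 CPM in vehicles, and hepatocyte identity markers at 84706 to 138953 and 140804 to 162149 CPM. Proliferation genes had median sums of 170 and 11.4 CPM. Their part in the tumors' values was not tested. The SD of Glul among tumors was 662 CPM at a mean of 594 CPM, and in no other group did it exceed 427 CPM.

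Glul was at 189, 215, 253, 298, 428, 745 and 2033 CPM in the tumors and at 942, 995, 1080, 1521, 1528 and 1558 CPM in vehicles. Tumor 6 lay above every vehicle and the other 6 tumors below every vehicle. The log2 difference was -1.09 (SE 0.51, edgeR adjusted p 0.10) with tumor 6 and -1.81 (SE 0.32, adjusted p 0.0005) without it, in an unplanned fit. Oat was at 182 to 347 CPM in 5 tumors, at 678 in tumor 7 and at 1398 in tumor 6, against 787 to 1352 CPM in vehicles. It fell by 1.08 (SE 0.41, adjusted p 0.044), a call that held in only 3 of 13 alternatives. Among others, the call ended with DESeq2 (0.057) and without a filter on low counts (0.12). Gulo was at 187 to 430 CPM in 6 tumors and 708 in tumor 6, against 585 to 742 CPM in vehicles, and fell by 0.95 (SE 0.26, adjusted p 0.0074), with an adjusted p of 0.054 when the vehicle library labelled as a tumor was counted as a vehicle.

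Rhbg was at 0.614 to 2.86 CPM in 6 tumors and at 11.8 CPM in tumor 6, the highest of all samples, against 2.03 to 4.32 CPM in vehicles. Slc1a2 was at 26.3 to 77.7 CPM in 5 tumors, and at 246 and 285 CPM in tumors 7 and 6, beside 207 to 281 CPM in vehicles. Tbx3 spanned 1.60 CPM in tumor 11 to 38.5 CPM in tumor 7, and Axin2 3.07 CPM in tumor 11 to 23.3 CPM in tumor 6. Tumor 6 was highest of the 7 for 8 of the 10 genes and tumor 7 for the other 2, Tbx3 and Rnf43, while tumor 11 was lowest for 9. The median log2 ratio of the 10 genes to the vehicle mean was 0.36 in tumor 6, -0.04 in tumor 7, -0.92 in tumor 3 and -1.53 to -2.31 in tumors 1, 5, 11 and 12.

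Tumor 6 was singled out for its high levels of these same genes, in fits that were not planned. P-values without it are descriptions and no test. Without tumor 6, 6 of the 10 genes passed against vehicles: Oat (-1.58, SE 0.27), Glul, Slc1a2 (-1.49, SE 0.44), Rhbg (-1.21, SE 0.34), Gulo (-1.20, SE 0.19) and Lgr5 (-1.04, SE 0.36, edgeR adjusted p 0.031). That fit called 6843 of all genes tested, 3691 of them higher. The main fit, with tumor 6, called 21% of 15293 genes lower. Against low-risk livers 4 passed without tumor 6: Glul, Oat, Slc1a2 and Gulo, at -1.72 (SE 0.34), -1.47 (SE 0.29), -1.35 (SE 0.48) and -1.06 (SE 0.20). This second fit called 5782 of all genes tested (3196 higher), and its main fit called 15.3% of 15557 genes lower. Against uninvolved livers 0 passed with or without tumor 6. Leaving out any 1 of tumors 1, 3, 5, 11 and 12 left 1 gene called against vehicles and 0 against low-risk livers. The call of Gulo against low-risk livers also ended without any 1 of the 5 low-risk livers, at adjusted p of 0.055 to 0.091.

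**Figure D4:**
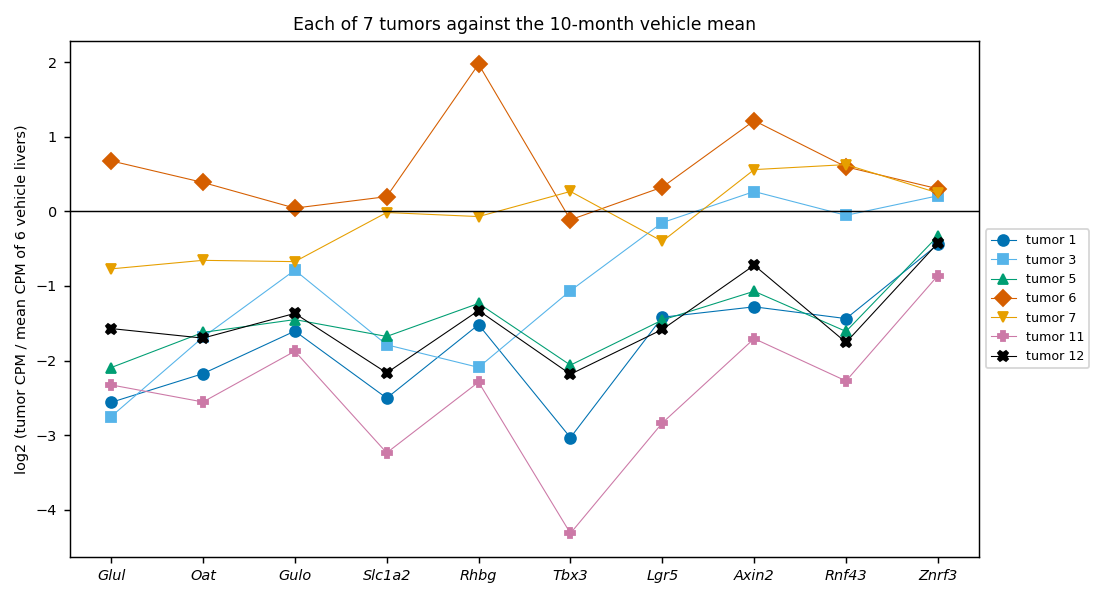
Log2 ratio of each tumor to the mean of the 6 vehicle livers of 10 months for each of the 10 genes, with lines joining the values of a tumor. Tumor 6 lies above 0 for 9 genes and tumor 7 for 4, and tumors 1, 5, 11 and 12 lie below 0 for all 10.

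Tumor 6 and tumor 7 also had the 2 highest sums of the other perivenous genes, 16486 and 14191 CPM against 8242 to 10574 CPM in the other 5 tumors, and 19930 to 29383 CPM in vehicles. Proliferation genes summed to 93.8 CPM in tumor 6 and 17.3 CPM in tumor 7, against 112 to 225 CPM in the other tumors. Cholangiocyte and progenitor markers summed to 298 and 249 CPM, against 297 to 865 CPM. Hepatocyte identity markers were lowest of all tumors in tumor 6, at 84706 CPM, and highest in tumor 7, at 138953 CPM. Other Wnt target genes summed to 471 CPM in tumor 6, the highest of the 7.

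The titles give a tumor and an uninvolved liver the same number in 6 mice. With the number as a replicate block over these 6 mice, 0 of the 10 genes passed between tumor and uninvolved liver. Over the 4 mice left without numbers 3 and 6, whose uninvolved libraries are nearly alike, 4 genes passed and all 4 were lower in the tumor. They were Tbx3 (-1.03, SE 0.25), Lgr5 (-0.95, SE 0.20, edgeR adjusted p 0.025), Rnf43 (-0.95, SE 0.21) and Axin2 (-0.89, SE 0.20). That fit called 3037 of all genes tested, 1540 of them higher, and the main fit of tumor against uninvolved liver tested 16362 genes. Axin2 was lower in 4 of 4 tumors than in the same mouse's uninvolved liver, with log2 ratios of -1.28, -1.10, -1.03 and -0.17 in mice 1, 5, 12 and 7. Lgr5, Tbx3 and Rnf43 were also lower in 4 of 4. Glul did not pass in these mice (-0.87, SE 0.33, adjusted p 0.10), being lower in mice 1, 5 and 12 and higher in mouse 7. Slc1a2 had log2 ratios of -1.84, -0.91 and -1.23 in mice 1, 5 and 12 and 0.31 in mouse 7, and did not pass either (-0.93, SE 0.31, adjusted p 0.076). Znrf3 had ratios of -0.19, 0.01, -0.14 and 0.27 in mice 1, 5, 12 and 7.

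The pathway genes of tumors against vehicles had calls in both directions, where 24.8% of all genes were called higher and 21% lower. Of 32 other perivenous genes 20 fell and 4 rose, and Gstm3, a glutathione transferase, rose by 4.73 (SE 0.54). Of 15 other Wnt targets 6 rose and 1 fell, with Ccnd1 (3.06, SE 0.21), from 9.85 ± 3.01 to 81.3 ± 19.2 CPM, Mmp7 (5.33, SE 0.42) and Ephb2 (4.56, SE 0.60) higher. Of 10 genes of the ligand list 3 rose and 4 fell, Wnt2 among the latter (-1.28, SE 0.20). Of 12 receptor genes 3 rose and 7 fell, Lgr4 among the latter (-0.55, SE 0.09). Against uninvolved livers, of 23 intracellular components 1 rose and 4 fell, where 18.1% of all genes were called in either direction. Ctnnb1, which encodes β-catenin, rose by 0.41 (SE 0.09, edgeR adjusted p 0.012), from 169 ± 18.3 to 226 ± 18.8 CPM, beside 219.5 ± 9.90 CPM in vehicles. The TCF genes Tcf7l1 (-1.08, SE 0.27) and Tcf7l2 (-0.76, SE 0.22) fell.

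The vehicle library labelled as a tumor had 451 CPM of Glul, 283 of Oat, 205 of Gulo and 134 of Slc1a2, each below every vehicle of 10 months. Its Rhbg, at 1.41 CPM, was below them too, and its Lgr5, at 7.98 CPM, was inside their range. It is a single library with 14.1% mitochondrial counts, and it entered only the alternative fits that counted it as a vehicle.

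Within groups and batches, the 10 genes varied together. After the mean of each group and batch was removed, Spearman's rho over 72 samples was positive for all 45 pairs, from 0.0917 for Axin2 with Rhbg to 0.72 for Axin2 with Tbx3, with a median of 0.40. Glul with Oat and Glul with Slc1a2 both had 0.71. Among 9772 genes of at least 5 CPM on average, those most like Glul were Lhpp (0.76), Slco1b2 (0.71), AC102159.1 (0.68), Lect2 (0.68) and Cyp2e1 (0.67). For Axin2 they were Hipk2 (0.54), Zfp652 (0.53), Daam2 (0.51), Rfx7 (0.50) and AC157910.3 (0.50). The samples share libraries and depth across genes, and these correlations are descriptions.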

How the data were processed

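Total RNA libraries (TruSeq Stranded Total RNA, per the labels' protocols) gave whole-number gene counts. Per the submitters' processing notes, Trim Galore, HISAT2, featureCounts and mm10 were used. The authors deposited the counts after a ComBat-seq batch adjustment, per the file name, so they are adjusted and not raw reads. Its settings, and the versions, are not given in the sources used here. An adjustment that knew the groups can make groups look more alike within themselves.

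Groups came from the labels. Both libraries of 3-week vehicle mouse 3, and those of uninvolved livers 3 and 6, were summed. This left 73 samples from 75 libraries, 72 of them in the main comparisons. P-values measure the spread between these samples. TBT was given to dams, and no fit held dam or litter, so pups of 1 litter would count as separate samples. R 4.3.3 with edgeR 4.0.16 fitted all genes after filterByExpr, with TMM scaling, quasi-likelihood tests and Benjamini-Hochberg adjustment over all genes tested (threshold 0.05). Groups of an age shared a fit, 5-month fits had batch as a covariate, tumors were fitted with 1 comparator at a time, and vehicles of different ages used batch 1. Alternatives were DESeq2 1.42.0, RLE scaling, no filter, single batches, other fits, a replicate block and leaving out each 10-month sample other than vehicles. Leaving out tumors was not planned in advance. The scripts were tested on simulated data.

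The 10 genes and the lists were chosen with earlier results of these data known. All 10 are named in every comparison, and of each list up to 4 called genes with the smallest adjusted p, or up to 2 of the highest mean CPM where none was called. Genes most like Glul and Axin2 are the 5 with the highest Spearman correlation of log2 CPM (prior count 2, mean CPM of at least 5). Tumor and uninvolved libraries with the same number were read as 1 mouse from their titles. Their deviations correlated between -0.38 (mouse 6) and 0.72 (mouse 7).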

Additional observations from a re-analysis of the deposited data

Results flagged for a closer look

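In 9 of 80 gene and group combinations of 5 to 10 samples, 1 sample lay far from all others of its group by Dixon's criterion. Chance meets it in about 1 of 20 groups of independent, normally distributed values. CPM need not be normally distributed and the 10 genes share samples, so that rate need not hold here. Tumor 6 was such a sample for Glul (2033 CPM, next 745), Oat (1398 CPM, next 678) and Rhbg (11.8 CPM, next 2.86). High-risk 1 of 5 months was one for Oat (752 CPM, next 335) and Lgr5 (8.53 CPM, next 4.81), and high-risk 22 for Gulo (464 CPM, next 308). Uninvolved 7 was one for Tbx3 (45.02 CPM, next 15.3) and Rnf43 (38.3 CPM, next 19.2), and uninvolved 12 for Gulo (426 CPM, next 287). Outside the main comparisons, the vehicle library labelled as a tumor had 25.7 CPM of Znrf3, above the 14.8 to 19.3 CPM of 6 vehicles.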

How the results depend on the processing

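Of 1450 alternative values of single genes, 1383 stayed on their side of the threshold, 45 lost a call and 22 gained one. Differences near 0 that were not called could change sign among the 1383. Called differences kept their sign in 297 of 297 alternatives, which reuse the same samples, but sizes could change. For 5-month high-risk against vehicle, the replicate block gave -0.04 for Gulo, -0.24 for Oat, -0.47 for Slc1a2 and -0.55 for Glul. The main fit gave -1.07, -1.55, -0.95 and -1.61. Tbx3 was at -1.61 with the block, beside -1.48. The count of called genes among the 10 went from 7 to 4 for 5-month high-risk against low-risk livers in batch 1 only, and from 5 to 0 against vehicles in batch 1 only. For tumor against vehicle it went from 2 to 1 without a filter and with DESeq2, and to 0 when the vehicle labelled as a tumor was counted as a vehicle. For tumor against low-risk liver it went from 1 to 0 without a filter and to 2 with all 10-month groups in 1 fit. Leaving out 1 sample gave 1 to 6 for tumor against vehicle, 0 to 4 for tumor against low-risk, 4 to 7 for uninvolved against low-risk and 5 to 8 for uninvolved against vehicle. No vehicle was left out in these fits. The cause was not tested.

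With a replicate block, the count was 0 for 5-month high-risk against vehicle, 0 for tumor against vehicle and 1 (Lgr5) for vehicles of 10 against 5 months, where the samples share only a number, and 4 for tumor against uninvolved over 4 mice. The cause was not tested.

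Over all genes, calls for 5-month high-risk against low-risk fell from 5745 to 773 in batch 1 only. Against vehicle they went from 2341 to 1211 without a filter, 1338 with 2 groups and 65 with the block. For tumor against uninvolved they went from 2961 to 4967 with DESeq2, 5346 with all groups in 1 fit, 1920 with the block over 6 mice and 1580, 1590 and 1611 without uninvolved 1, 5 and 7. For low-risk against vehicle at 5 months they went from 0 to 78 with DESeq2, 20 without the batch covariate and 1 without the libraries that stood apart, and at 3 weeks from 0 to 3 without a filter. Counting the vehicle labelled as a tumor as a vehicle took uninvolved against vehicle from 9427 to 6019, tumor against vehicle from 7016 to 4206 (3972 with the block) and vehicles of 10 against 5 months from 2107 to 671. The last was 1128 without a filter, 4197 with DESeq2 and 3700 without the libraries that stood apart, and vehicles of 5 months against 3 weeks went from 3616 to 2172 without a filter and 5757 without those libraries. The interaction went from 72 to 4 without a filter, 262 with DESeq2, 122 with uninvolved 3 and 6 apart, and 6 to 37 without 1 of 9 samples, the lowest without low-risk 4. Low counts of Rhbg and Lgr5, down to 4 and 5, limit those genes.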
